A study of Mus musculus with 12 samples.

Results

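From the 11385 genes in a deposited count table of mouse oocytes, 10 were picked that stood, in all or most pools, near 0 either with or without Mfn2 and abundant in the other state. The list does not hold every such gene. It was chosen from the counts of the genes in all 12 pools, so the contrast between oocytes with and without Mfn2 is given for them as a description, with no test. In 6 of them (Fam124a, Zbtb7c, Cacna1s, Manba, Acsf2 and Abcb11) transcripts were abundant where Mfn2 was absent, and in 4 (Dhrs3, Tie1, Pknox2 and Prr15l) where Mfn2 was present. Sequencing covered the total RNA of germinal-vesicle oocytes stripped of their cumulus cells, in 12 pools of 50 oocytes from unprimed mice labelled C57BL/6J and aged 21 to 23 days. The 4 groups, with 3 pools each, were wild type (WT), Mfn1-/-, Mfn2-/- and Mfn1&2-/-, the last lacking both genes. The sources used here do not give how the genes were deleted or in which cells, and the labels do not say whether pools came from separate mice. All p-values therefore measure the spread between pools.

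Mitofusins sit in the outer membrane of mitochondria and use GTP to pull mitochondria together for fusion, and Mfn2 also holds mitochondria close to the endoplasmic reticulum. A germinal-vesicle oocyte is arrested in meiotic prophase and stores transcripts made during its growth in the follicle. Several of the 10 genes are best known from other tissues: Cacna1s is the pore of the skeletal-muscle calcium channel, Abcb11 exports bile salts from liver cells, and Tie1 is a receptor tyrosine kinase of endothelium.

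The deleted genes checked the labels. Mfn2 stood at 64.3 to 87.2 CPM (the counts of a gene relative to its library total after scaling with the TMM factors of edgeR) in the 6 WT and Mfn1-/- pools. In the 6 pools labelled as lacking it, Mfn2 stood at 9.19 to 13.5 CPM. Mfn1 stood at 217 to 297 CPM in WT and Mfn2-/- and at 14.8 to 26.4 CPM in the 6 pools labelled as lacking Mfn1, so neither gene fell to 0. Pools held 11575357 to 16024893 counts, at which 3 counts correspond to 0.188 to 0.253 CPM. All 12 oocyte markers examined were in the table, with a summed level of 11631 to 16950 CPM. Of 14 granulosa-cell markers 11 were in the table, and their summed level was 923 CPM in WT replicate 3 against at most 543 CPM in the other pools. Without Mfn2 none of the 11 was called higher and 4 were called lower: Inhba by -3.20 on the log2 scale, Inha by -2.09, Hsd3b1 by -2.06 and Kitl by -0.69. Inhba, Inha and Hsd3b1 were each highest in WT replicate 3, at 71.3, 77.9 and 44.9 CPM. Mean Kitl was 13.0 CPM in WT, 10.2 in Mfn1-/-, 12.6 in Mfn2-/- and 4.08 in Mfn1&2-/-. The part of granulosa-cell RNA in the levels of the 10 genes was not tested.

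The 10 genes lay on 8 chromosomes, and promoter sequences were at hand for 7 of them (RefSeq, GRCm38.p6). The 250 bases before the start site are shown for a gene without a read in any pool with Mfn2, for a gene at a low level there, and for a gene that went the other way, to let their unlike base composition be seen. Capitals mark GGGCGG (the GC box) and AGGTCA (a half-site of nuclear receptors, read here as TGACCT on the opposite strand).
Fam124a, chr14:62555487-62555736, plus strand: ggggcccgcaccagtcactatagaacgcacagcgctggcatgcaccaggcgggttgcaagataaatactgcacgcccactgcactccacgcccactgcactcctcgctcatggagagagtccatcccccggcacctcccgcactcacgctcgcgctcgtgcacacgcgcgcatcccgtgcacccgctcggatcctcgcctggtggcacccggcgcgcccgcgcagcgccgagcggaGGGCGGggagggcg
Abcb11, chr2:69342617-69342866, minus strand: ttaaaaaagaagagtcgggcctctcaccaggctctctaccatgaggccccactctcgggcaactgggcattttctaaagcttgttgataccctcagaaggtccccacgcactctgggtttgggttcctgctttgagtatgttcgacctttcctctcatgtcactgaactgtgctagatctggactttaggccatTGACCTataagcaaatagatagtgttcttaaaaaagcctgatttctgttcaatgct
Dhrs3, chr4:144892577-144892826, plus strand: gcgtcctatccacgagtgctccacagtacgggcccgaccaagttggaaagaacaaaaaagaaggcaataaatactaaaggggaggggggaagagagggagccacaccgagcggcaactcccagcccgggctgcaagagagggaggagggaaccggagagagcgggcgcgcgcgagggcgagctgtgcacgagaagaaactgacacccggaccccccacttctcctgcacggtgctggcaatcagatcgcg
The Fam124a promoter was rich in CpG, with an observed-to-expected ratio of 0.990 and a rank at the 86.2 percentile of 8560 promoters of genes in the table. Abcb11, with 0.300, ranked at the 11.2 percentile, and Dhrs3, with 0.812, at the 61.2 percentile. Each of 7 motifs was searched on both strands. GGGCGG was found in Fam124a, Cacna1s, Manba and Acsf2 and in 59.1% of all promoters. AGGTCA was found in Manba and Abcb11 and in 10.2% of all, and TGACAG, the core read by PKNOX and MEIS homeobox factors, in Cacna1s and in 13.8%. TATAAA (6.30% of all promoters), CCAAT (37.0%), CACGTG (8.69%) and TGACGTCA (2.94%) were in none of the 7. No motif was shared by all 7, and none of these letters was found in the Dhrs3 or Tie1 window. In GENCODE vM21, annotated exons covered 212 of the 250 bases of the Tie1 window, 85 for Acsf2 and 61 for Cacna1s, so those windows lie partly within transcribed sequence.

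Calling a level below 1 CPM near 0 and one of at least 5 CPM abundant, 109 of the 120 values followed the pattern and 11 broke it. Fam124a, Dhrs3 and Prr15l followed it in all 12 pools, as did 5 genes of the table in all. The other 2 of those 5, named here after their values were seen, were Btla, an inhibitory receptor of lymphocytes (mean 0.162 CPM with and 69.6 CPM without Mfn2), and the transcript 4930562C15Rik (24.2 and 0 CPM), both on chromosome 16. With WT replicate 3 left out, 5 of the 10 genes followed the pattern in every remaining pool. Just inside the limits stood Abcb11 in WT replicate 2 (0.928 CPM) and Tie1 in Mfn1-/- replicate 1 (5.72 CPM). Just outside stood Manba in WT replicate 1 (1.04 CPM) and Tie1 in WT replicate 1 (4.63 CPM). In 7 of the 10 genes the 6 pools with Mfn2 did not overlap the 6 without it, which held for 3.5% of all genes; since the genes were chosen on these values, nothing is read from that count.

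**Figure D1:**
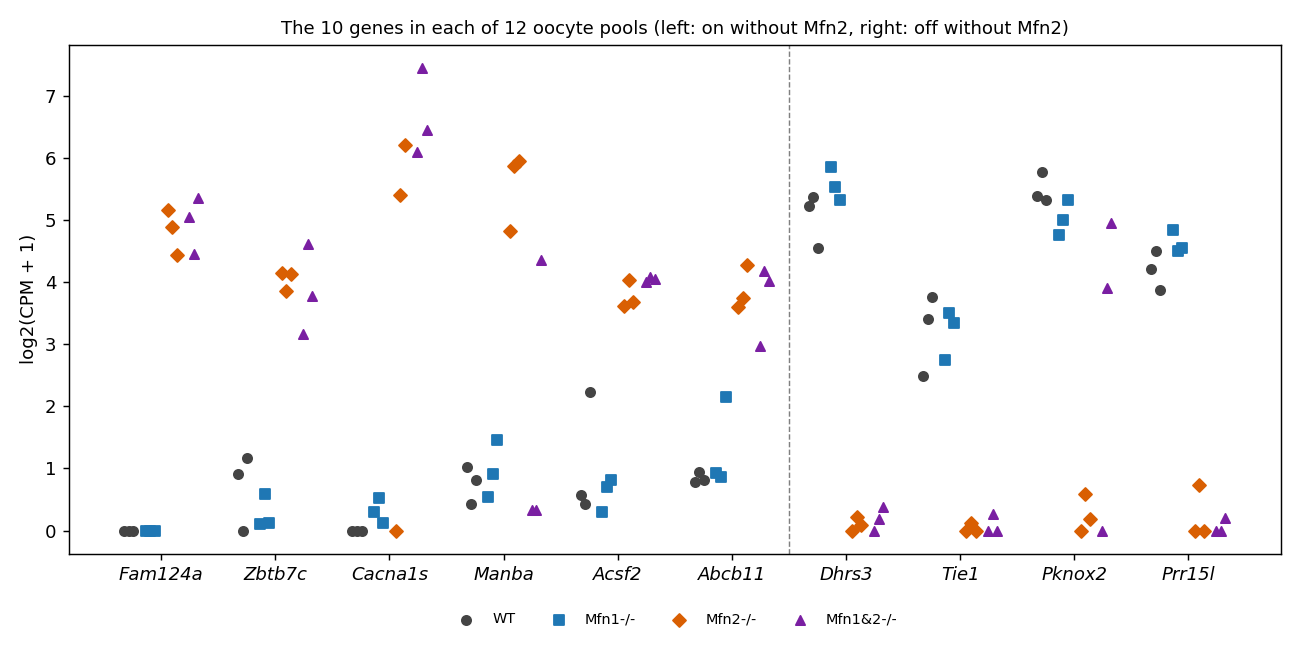
Level of each of the 10 genes as log2(CPM + 1), 1 point per pool of 50 oocytes, with symbols and colours for the 4 groups. Most points lie on 2 levels that run with the Mfn2 label of the pool. On the other level lie 1 Mfn2-/- pool of Cacna1s and 2 Mfn1&2-/- pools each of Manba and Pknox2.

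Metabolic enzymes and a transporter were among the genes abundant without Mfn2. Acsf2, an acyl-CoA synthetase that activates fatty acids (chromosome 11, 94557102 to 94601871, GRCm38), had 11.3, 15.4 and 11.8 CPM in Mfn2-/- pools and 15.0, 15.8 and 15.5 CPM in Mfn1&2-/- pools. With Mfn2 present it had 0.479, 0.337 and 3.67 CPM in WT and 0.226, 0.627 and 0.750 CPM in Mfn1-/-. These 6 pools lay below all pools without Mfn2, and the highest of them was WT replicate 3, the pool with the high granulosa-cell markers. Pooled counts were 14.3 times higher without Mfn2 (95% counting interval 11.4 to 18.3, which covers counting error only, here and below). In pooled oocytes, fewer cells expressing a gene and less RNA per cell cannot be told apart.

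Abcb11, the bile salt export pump (chromosome 2, 69238282 to 69342616), had 11.1, 12.5 and 18.4 CPM in Mfn2-/- and 6.82, 17.0 and 15.2 CPM in Mfn1&2-/-. In WT it had 0.719, 0.928 and 0.752 CPM, and in Mfn1-/- 0.902, 0.815 and 3.41 CPM. It was at 0 in no pool, and even the lowest ones held 9 reads. The pooled ratio was 11.2 (9.12 to 14.0), the smallest of the 6.

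Manba, a lysosomal mannosidase that trims the last sugars of glycoproteins (chromosome 3, 135485611 to 135571404), had 27.4, 57.5 and 60.7 CPM in Mfn2-/- pools. In WT it had 1.04, 0.337 and 0.752 CPM and in Mfn1-/- 0.451, 0.878 and 1.75 CPM. The Mfn1&2-/- pools did not follow the Mfn2-/- pools: replicates 1 and 2 stood at 0.253 and 0.263 CPM, below every pool that had Mfn2, and replicate 3 at 19.4 CPM. Those 2 pools held 3 and 4 Manba reads.

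The transcriptional repressor Zbtb7c (chromosome 18, 75820178 to 76148564), of the BTB zinc-finger family, had 16.7, 13.5 and 16.5 CPM in Mfn2-/- and 7.91, 23.3 and 12.7 CPM in Mfn1&2-/-. With Mfn2 it had 0.878, 0 and 1.25 CPM in WT and 0.0752, 0.502 and 0.0833 CPM in Mfn1-/-. The groups did not overlap, the highest pool with Mfn2 was again WT replicate 3, and the pooled ratio was 33.4 (24.0 to 48.0).

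Fam124a, of little-known function (chromosome 14, 62555737 to 62608486), had no read in any of the 6 pools with Mfn2. It stood at 34.7, 28.6 and 20.7 CPM in Mfn2-/- and at 32.2, 20.8 and 39.7 CPM in Mfn1&2-/-. Setting 3 counts in place of the 0 reads over the pools with Mfn2, it was at least 753.1-fold higher without it, and at least 417.0-fold higher in Mfn1&2-/- than in Mfn1-/-.

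Cacna1s (chromosome 1, 136052750 to 136119822) was the most uneven. It had no read in the WT pools and 0.226, 0.439 and 0.0833 CPM in Mfn1-/-. In Mfn1&2-/- it stood at 67.0, 173.8 and 86.3 CPM. In Mfn2-/-, replicates 2 and 3 stood at 41.4 and 72.4 CPM, but replicate 1 had no read at all, in a library of 15168771 counts. That Mfn2-/- pool was abundant for the other 5 genes, from 11.1 CPM for Abcb11 to 34.7 CPM for Fam124a.

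**Figure D2:**
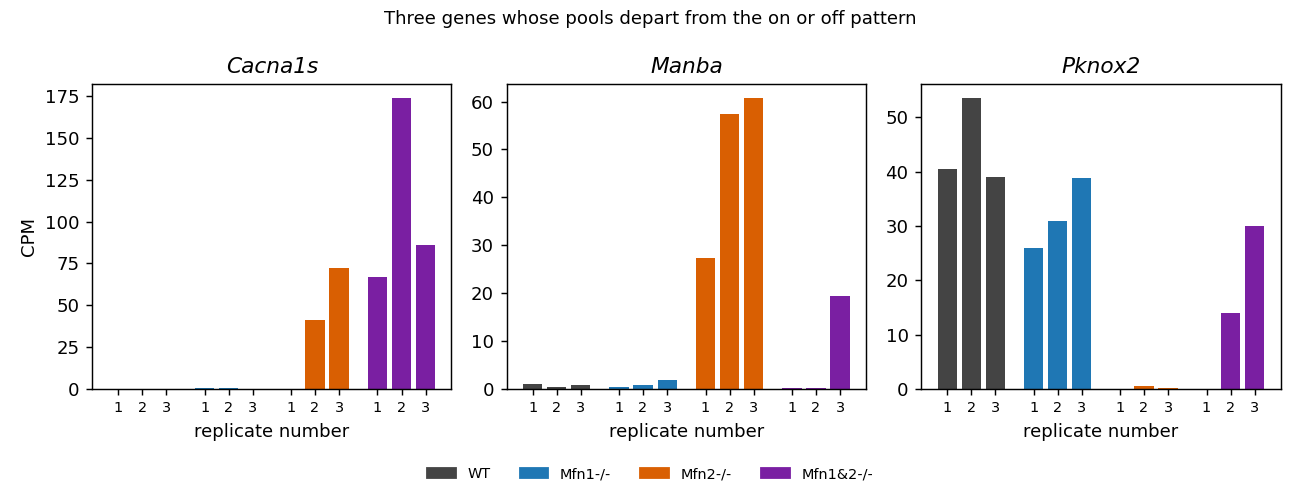
CPM of Cacna1s, Manba and Pknox2, 1 bar per pool, by group and replicate number; each panel has its own linear axis from 0. Cacna1s is at 0 in Mfn2-/- replicate 1, Manba is near 0 in Mfn1&2-/- replicates 1 and 2, and Pknox2 reaches 13.9 and 30.1 CPM in Mfn1&2-/- replicates 2 and 3.

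Dhrs3 led the genes abundant with Mfn2; its enzyme reduces retinal to retinol and so holds down retinoic acid. It lies on chromosome 4 (144892827 to 144928209), 2.95 Mb from Mfn2. It stood at 36.3, 40.4 and 22.3 CPM in WT and at 56.6, 45.1 and 39.1 CPM in Mfn1-/-. In Mfn2-/- it had 0, 0.166 and 0.0669 CPM and in Mfn1&2-/- 0, 0.131 and 0.303 CPM, 9 reads over 6 pools. The groups were far apart in every pool, with a pooled ratio of 370.3 (194.8 to 810.7).

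Tie1 lies on the same chromosome (118471191 to 118490061), 29.4 Mb from Mfn2, and was the lowest of the 4. It had 4.63, 9.62 and 12.6 CPM in WT, 5.72, 10.3 and 9.08 CPM in Mfn1-/-, and 4 reads in all over the 6 pools without Mfn2. The ratio was 178.4 (69.4 to 656.8). Of 14 endothelial markers 5 were in the table (Pecam1, Kdr, Tek, Flt1 and Erg), and none was called lower with Tie1: without Mfn2, Pecam1 rose by 0.29 ± 0.07 on the log2 scale (± is the standard error; edgeR adjusted p = 0.0151) and Flt1 by 1.17 ± 0.18 (adjusted p = 0.000544). Their summed level was 146 to 180 CPM in pools with Mfn2 and 192 to 231 CPM in pools without.

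Pknox2, a homeobox factor of the TALE class (chromosome 9, 36890982 to 37147407), stood at 40.6, 53.6 and 39.1 CPM in WT and at 25.9, 30.9 and 38.8 CPM in Mfn1-/-. In Mfn2-/- it had 0, 0.498 and 0.134 CPM. In Mfn1&2-/- it had 0, 13.9 and 30.1 CPM, so replicate 1 matched the Mfn2-/- pools and replicate 3 lay within the range of the Mfn1-/- pools. Prr15l, of little-known function (chromosome 11, 96928104 to 96937830), showed no such spread. It stood at 17.5, 21.7 and 13.6 CPM in WT and 27.6, 21.5 and 22.5 CPM in Mfn1-/-. Without Mfn2 it had reads in only 2 of 6 pools, at 0.664 CPM in Mfn2-/- replicate 2 and 0.151 CPM in Mfn1&2-/- replicate 3. The pooled ratio was 171.7 (93.1 to 358.7).

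Per kilobase of exon, the levels on the abundant side could be compared between the genes. Dhrs3 was highest at 13.7 CPM per kb, the 70.0 percentile of 11274 located genes, followed by Cacna1s at 11.2 and Fam124a at 6.68. Prr15l (5.28), Acsf2 (4.12), Manba (3.96), Pknox2 (3.69), Zbtb7c (3.19) and Abcb11 (2.62) followed, and Tie1 was lowest at 1.76 CPM per kb. Apart from Cacna1s and Manba, the highest abundant pool of each gene was 1.41 (Acsf2) to 2.95 (Zbtb7c) times the lowest. For genes of like level the median of that ratio was 1.66 over the pools without Mfn2 and 1.60 over those with it, and the 95th percentiles were 3.36 and 3.01. For Manba the ratio was 240.4, and for Cacna1s a pool at 0 left none to give.

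Loss of Mfn1 was compared on either side of the pattern as a description. The choice of the genes asked WT and Mfn1-/- to stand on one level and Mfn2-/- and Mfn1&2-/- on the other, so these differences have no test for the 10 genes, and small ones follow from the choice. Between Mfn1-/- and WT, Dhrs3 differed by 0.51 ± 0.29 on the log2 scale and Prr15l by 0.44 ± 0.45, with 3 pools a group. Tie1 differed by -0.09 ± 0.51 and Pknox2 by -0.48 ± 0.73. Over the table edgeR called 0.228% of genes between these groups, and nothing is read from the members against it.

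Between Mfn1&2-/- and Mfn2-/-, where edgeR called 10.2% of the table, Pknox2 and Manba stood furthest apart. Pknox2 had a mean of 0.211 ± 0.258 CPM (SD, n = 3) in Mfn2-/- and 14.7 ± 15.0 CPM in Mfn1&2-/-, a log2 difference of 6.19 ± 1.20 that lay in 2 of 3 pools. Manba differed by -2.87 ± 0.94. Without Mfn1&2-/- replicate 3, the 1 pool of its group with abundant Manba, that difference was -7.50. Cacna1s differed by 1.52 ± 0.89, its pool at 0 included. Fam124a differed by 0.14 ± 0.28, Abcb11 by -0.10 ± 0.44, Acsf2 by 0.27 ± 0.52 and Zbtb7c by -0.08 ± 0.53. Prr15l (-1.80 ± 1.32), Tie1 (1.30 ± 1.42) and Dhrs3 (0.96 ± 1.01) were near 0 CPM in both groups.

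**Figure D3:**
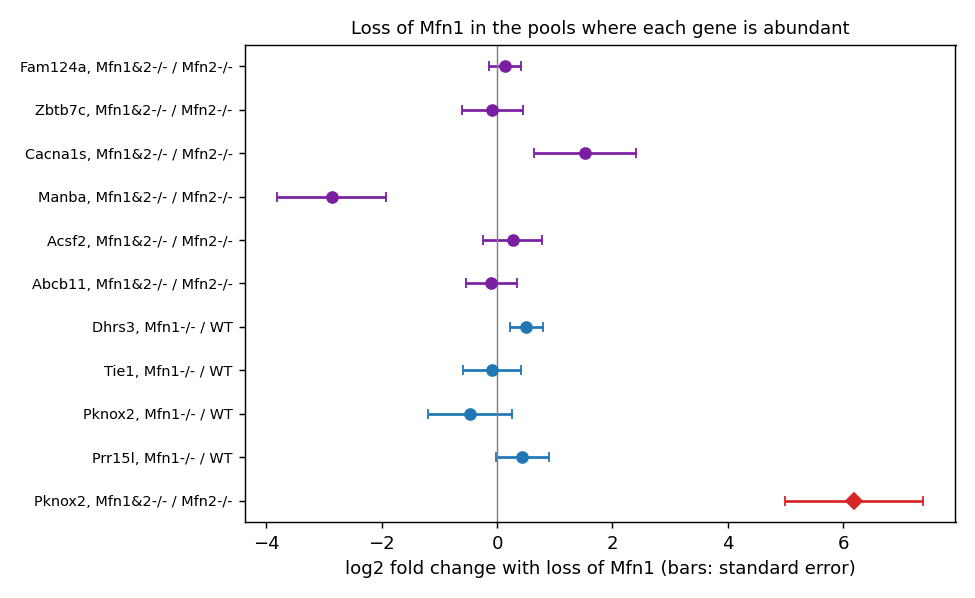
Log2 fold change with loss of Mfn1 (point) and its standard error (bar) from edgeR: Mfn1&2-/- against Mfn2-/- for the 6 genes abundant without Mfn2, Mfn1-/- against WT for the 4 abundant with it, and Pknox2 in the former contrast as a separate row. Pknox2, at 6.19, and Manba, at -2.87, lie furthest from 0.

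The difference with loss of Mfn2 can also be set out by Mfn1. For Pknox2 the mean was 44.4 CPM with and 0.211 CPM without Mfn2 where Mfn1 was present, and 31.9 CPM with and 14.7 CPM without Mfn2 where Mfn1 was absent. For Manba the pooled ratio without against with Mfn2 was 66.9 (45.5 to 102.7) where Mfn1 was present and 6.57 (4.71 to 9.36) where it was absent. The latter rests on 1 pool: 256 of the 263 Manba reads in Mfn1&2-/- lay in replicate 3. Over the table the interaction of the losses was called for 4.13% of genes.

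Genes of the same families and pathways were examined beside the 10. In the contrast of the 6 pools without against the 6 pools with Mfn2, 1408 genes or 12.4% of the table were called, 706 higher and 702 lower, with a median log2 difference of 0.0017. Of the 167 related genes in the table, 23 or 13.8% were called, 14 higher and 9 lower, with a median of -0.014, and 12 to 15 were called without Mfn1-/- replicate 2, Mfn2-/- replicate 2 or 3, or Mfn1&2-/- replicate 2.

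Around Dhrs3, 15 of 43 listed genes of retinoid metabolism and reception were in the table, 4 were called higher and 1 lower, and the median was 0.02. Crabp2, which carries retinoic acid to its nuclear receptors, fell by 0.80 (standard error 0.18, adjusted p = 0.00995). Adh5 rose by 0.33 ± 0.08 (adjusted p = 0.0116), and the receptor Rarb rose by 1.69 ± 0.48 (adjusted p = 0.0306) at the low levels of 0.883 and 2.54 CPM. Around Tie1, 8 of 21 genes were in the table and only Flt1, a VEGF receptor, was called; the median was 0.39. Tek, the partner receptor of Tie1, stood at 34.6 CPM with and 35.2 CPM without Mfn2 (0.02 ± 0.11, adjusted p = 0.929). Of the TALE homeobox relatives of Pknox2, 10 of 17 were in the table, 1 fell (Tgif2, by 0.40, standard error 0.12, adjusted p = 0.0376), and the median was -0.19.

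Around Cacna1s, 19 of 37 genes of calcium channels and their partners were in the table, 3 higher and 1 lower, with a median of -0.05. Cacng7, an auxiliary subunit, fell by 1.29 (standard error 0.26, adjusted p = 0.00460). Ryr1, the calcium release channel that Cacna1s gates in skeletal muscle, rose by 2.30 ± 0.59 (adjusted p = 0.0185) from a mean of 0.471 to 2.40 CPM. The junctophilin Jph3 rose by 1.58 ± 0.42 (adjusted p = 0.0211). Its pools overlapped, at 3.57 to 9.10 CPM with and 4.27 to 32.9 CPM without Mfn2. Of 14 skeletal-muscle markers 4 were in the table; Actn3 and Ryr1 were called higher, Myh1 and Mb were not called, and the summed level was 50.1 to 70.8 CPM with and 65.5 to 96.7 CPM without Mfn2.

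Of the BTB zinc-finger relatives of Zbtb7c, 37 of 42 were in the table, 2 rose and 3 fell, with a median of -0.08. Zbtb17 rose by 0.89 ± 0.13 (adjusted p = 0.000507) and Zbtb37 by 0.36 ± 0.09 (adjusted p = 0.0142), while Zbtb46 fell by 0.26 (standard error 0.07, adjusted p = 0.0240). Mean Zbtb46 was 157.1 CPM in WT, 156.0 in Mfn1-/-, 112.6 in Mfn2-/- and 151.4 in Mfn1&2-/-. The 20 lysosomal genes in the table of 33 listed with Manba had 1 call, and the median was 0.06. Hgsnat, which acetylates heparan sulfate in the lysosome, fell by 1.87 (standard error 0.25, adjusted p = 0.000185). Its mean was 9.30 CPM in WT, 14.0 in Mfn1-/-, 5.87 in Mfn2-/- and 1.65 in Mfn1&2-/-. The highest pool without Mfn2 (8.57 CPM) lay above the lowest with it (8.01 CPM). Among 13 of 23 acyl-CoA synthetases, with a median of 0.21, only Slc27a2, a fatty acid transporter and synthetase, was called; it rose by 4.22 ± 0.63 (adjusted p = 0.000484) from 0.303 to 2.73 CPM.

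Of the ABC transporters, 33 of 47 were in the table, 3 rose and 2 fell, with a median of 0.07. The peptide transporter Tap2 fell by 1.16 (standard error 0.30, adjusted p = 0.0190), Abca9 rose by 1.23 ± 0.32 (adjusted p = 0.0206), and Abcc10 fell by 1.76 (standard error 0.49, adjusted p = 0.0279). The mean of Abca9 was 10.3 CPM in WT, 8.32 in Mfn2-/- and 10.8 in Mfn1&2-/-, with only Mfn1-/- low, at 1.58. Of 23 genes of bile acid synthesis and transport 10 were in the table and edgeR called 0, with a median of -0.34; 3 had an unadjusted p below 0.05, and DESeq2 and limma voom called 0. No liver marker of 14 and no blood or immune marker of 10 was in the table, which holds only genes above 1 CPM in at least 3 pools. For Fam124b and Prr15, the named paralogs of the little-known members, edgeR called 0, 0 had an unadjusted p below 0.05, and DESeq2 and limma voom called 0.

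**Figure D4:**
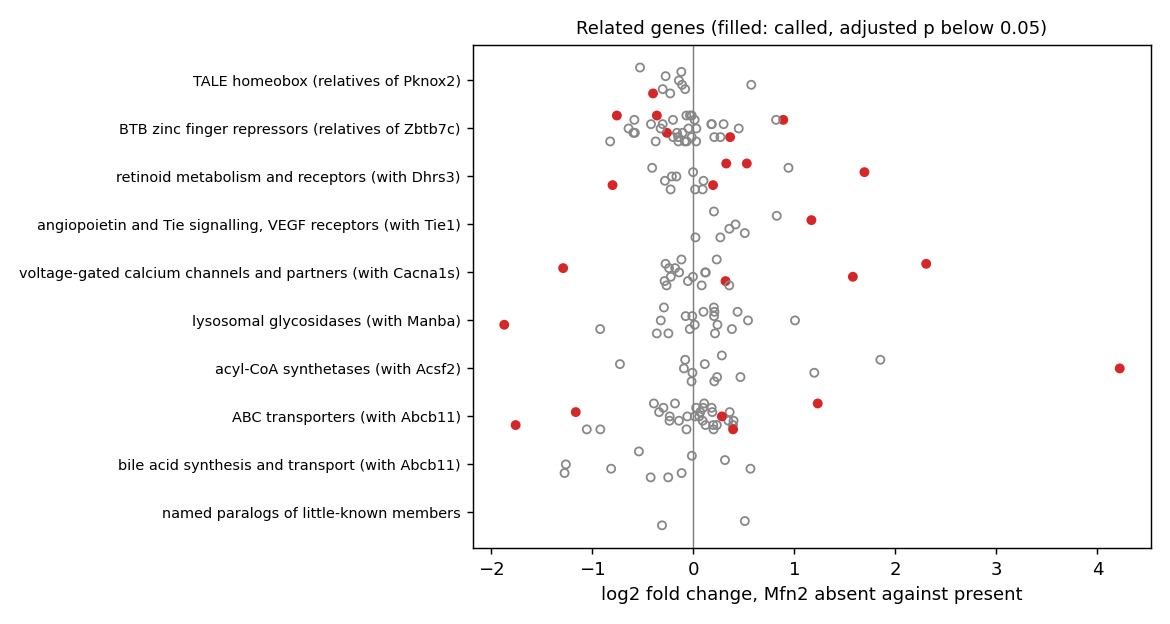
Log2 fold change, Mfn2 absent against present, of each gene in the 10 lists of related genes (1 row per list, 1 circle per gene; filled circles have an adjusted p below 0.05). Most circles lie near 0; Slc27a2, at 4.22, and Ryr1, at 2.30, are called higher from means below 1 CPM, and Hgsnat, at -1.87, is called lower.

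Next to the 10 genes on the chromosome, called genes were found on either side of 0. Of 79 genes of the table within 500 kb, 10 were higher and 11 lower without Mfn2, or 26.6% against 12.4% of the table, with a median of -0.00047. Within 100 kb the count was 5 of 30 (16.7%), and within 1 Mb 39 of 152 (25.7%). Dhrs3, the gene nearest to Mfn2, had 2 called of 3 and, within 1 Mb, 6 of 10. Acsf2 had 6 of 12, Cacna1s 3 of 8 and Pknox2 3 of 10 within 500 kb. Shares were lower for Abcb11 and Tie1, with 2 of 9 each, Manba, with 1 of 7, and Zbtb7c, with 0 of 2.

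Of the 20 nearest genes on either side, 4 were called. Lrrc59, 27.9 kb from Acsf2, rose from 151.6 to 254.2 CPM (0.73 ± 0.06, adjusted p = 2.58e-06), and Pramef12, 484 kb from Dhrs3, rose by 0.29 ± 0.05 (adjusted p = 0.00237). Ei24, 93.6 kb from Pknox2, fell by 0.46 (standard error 0.11, adjusted p = 0.0161). The transcript D030028A08Rik is annotated on the same strand across part of Prr15l, so reads of these genes cannot be told apart where they overlap. The genes on both sides of Fam124a, Zbtb7c, Cacna1s, Manba, Abcb11 and Tie1 were not called. Ube2d3 and Nfkb1, which flank Manba at 17.4 and 13.3 kb, differed by 0.08 ± 0.08 and 0.01 ± 0.19.

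**Figure D5:**
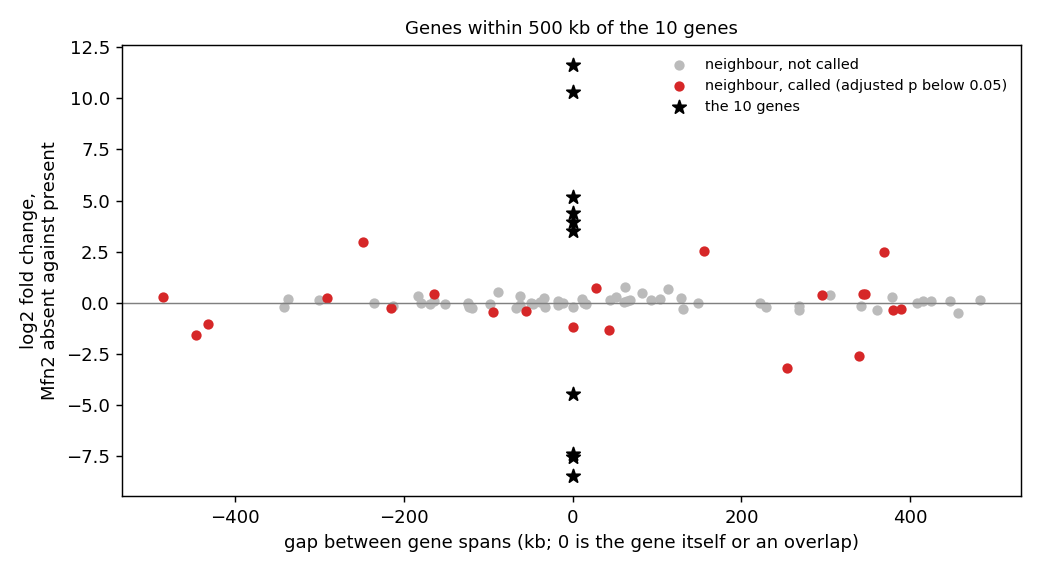
Log2 fold change, Mfn2 absent against present, of the genes within 500 kb of the 10 genes, by the gap between gene spans in kb, with called genes in red and the 10 genes as stars at 0. The stars reach down to -8.44 for Dhrs3, and the called neighbours lie on either side of 0, the lowest being Slc39a8, near Manba, at -3.18.

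Genes outside the 10, predicted genes left out, were ranked by how closely their levels ran with each of the 10. The measure was Pearson r of log2(CPM + 1) over the 12 pools, as a description. All pools of a genotype share the contrast that chose the 10. Mfn2 itself was the ranked gene most like Dhrs3 (r = 0.985) and Prr15l (r = 0.981). The kinesin Kif18b, with 72.0 CPM with and 23.7 CPM without Mfn2, was the most like Tie1 (r = 0.983). Btla was the most like Fam124a (r = 0.986). The Polycomb-group gene Pcgf3, at 67.8 and 203.7 CPM, was the most like Zbtb7c (r = 0.979) and Acsf2 (r = 0.955). Within the 10, Dhrs3 and Prr15l ran closer to each other than to Mfn2, at r = 0.996. Acsf2 ran closer to Zbtb7c than to Pcgf3, at r = 0.959. Phyhipl was the most like Abcb11 (r = 0.966).

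Likeness was also ranked for the uneven genes Cacna1s, Manba and Pknox2. Ptprv, a phosphatase gene 0.920 Mb from Cacna1s, ran with it at r = 0.959 and ranged from 0.732 to 45.5 CPM in the pools without Mfn2. Prom1 ran with Manba at r = 0.962, with 74.3 ± 5.96 CPM in Mfn2-/- and 49.1 ± 19.5 CPM in Mfn1&2-/- (SD, n = 3). Pknox2 had the weakest likeness, with Txnrd1, a thioredoxin reductase, at r = 0.937. Of the 10 genes, 5 had a gene on their own chromosome among their 2 most alike: Cpb2 for Fam124a (12.6 Mb away), Ptprv and Mcm6 for Cacna1s, Mfn2 for Dhrs3, Tceanc2 for Tie1 (11.3 Mb) and Kif18b for Prr15l (5.97 Mb).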

How the data were processed

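RNA from 12 oocyte pools was depleted of ribosomal RNA and made into libraries with a stranded SMARTer kit, per the labels. Tools named in the submitters' processing notes are STAR 2.7.0a, FastQC 0.11.7 and edgeR, with the mm10 genome; the sources used here give neither strand setting nor annotation. The authors deposited raw counts per gene, and a signal table of CPM that equalled TMM-scaled CPM computed here within a relative 5.07e-15.

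Groups came from the labels; 1 pool, spelled "Mn2-/-", was placed by its description. Counts were fitted with edgeR 4.0.16 (R 4.3.3), a quasi-likelihood model with 4 group means, 12 libraries and residual degrees of freedom of 8. All 11385 genes passed filterByExpr. Adjusted p-values are Benjamini-Hochberg values over all genes, called below 0.05. Standard errors are the absolute log2 fold change over the square root of F. The fit was tested on simulated data. Positions are from GENCODE vM21 (GRCm38), where 11274 symbols (99.0%) were located. The members and gene lists were chosen with earlier results of these data known. Contrasts of Mfn1 loss had been planned as tests of the members, but the choice used those pools, so they are given as descriptions. Named genes are the members, up to 3 called genes per list by smallest p, the nearest gene on each side, and the 2 most alike genes with at least 5 CPM, predicted genes left out; 1 called nearest gene is not reported here. Alternatives were RLE scaling, library size only, no filter, at least 5 CPM in 3 libraries, only the groups compared, a replicate block (title or description number), DESeq2 1.42.0, limma voom 3.58.1 and each library left out.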

Additional observations from a re-analysis of the deposited data

Results flagged for a closer look

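Pknox2 alone of the 10 genes had an edgeR adjusted p below 0.05 for a difference in the effect of Mfn2 loss by Mfn1. The share over the table was 4.13%, and nothing is read from the count of members. The log2 value was 6.67 ± 1.44 (adjusted p = 0.0209 over all genes, 3 pools in each group). The fit uses pools on which the 10 genes were chosen, so the value and its adjusted p are a description. Manba, not called, had -3.36 ± 1.61. The higher Pknox2 values lay in 2 of the 3 Mfn1&2-/- pools, at 13.9 and 30.1 CPM, while replicate 1 had no read. Over 8 other fits the adjusted p for Pknox2 ran from 0.0197 to 0.929, with 0.423 for limma voom. With each library left out it ran from 2.41e-05 to 0.0603; it was 0.0544 without Mfn1-/- replicate 1 and 0.0603 without Mfn2-/- replicate 3.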

How the results depend on the processing

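The replicate number was shared by 1 library in each group, but same-numbered libraries did not deviate together (18 pairs, r from -0.185 to 0.222, median -0.017), and 5 of 12 libraries correlated best with their own number. With the number as a replicate block, 965 genes were called for Mfn1&2-/- against Mfn2-/-, 1212 for Mfn2 absent against present, 19 related genes and 18 neighbours. Manba then differed by -4.00 between Mfn1&2-/- and Mfn2-/-. Descriptions carry another number, which 9 libraries share with a library of another group; those 6 pairs had r from -0.130 to 0.217 (median -0.041), 1 of them above 0.1. With that number as a replicate block, added after the data had been seen, only 2 residual degrees of freedom were left. It gave 1 gene for Mfn1-/- against WT, 18 for Mfn1&2-/- against Mfn2-/-, 322 for Mfn2 absent against present, 0 for the interaction, 5 related genes and 7 neighbours. It turned the sign of Acsf2 in Mfn1&2-/- against Mfn2-/- (-0.35) and of Prr15l in Mfn1-/- against WT (-1.25). For Mfn2 absent against present neither sign turned. Over 8 other fits that difference was 3.96 to 4.36 for Acsf2 and -8.04 to -7.35 for Prr15l. For Mfn1-/- against WT, 26 genes called became 13 with only the groups compared and 224 with DESeq2. With 1 library left out, the count was 42, 4 and 13 (WT replicates 1, 2 and 3), 4, 3 and 51 (Mfn1-/- replicates 1, 2 and 3), 16 (Mfn2-/- replicate 3) and 46 (Mfn1&2-/- replicate 1), the full range being 3 to 51. For Mfn1&2-/- against Mfn2-/- it ran from 570 to 1302, with 765, 570 and 631 without Mfn2-/- replicates 1, 2 and 3 and 674 without Mfn1&2-/- replicate 2. For the interaction it ran from 160 to 464, and from 0 to 902 over the other fits. For Mfn2 absent against present it ran from 1018 to 1386. Related genes called ran from 12 to 21 and neighbours from 16 to 21, and neighbours came to 5 within 100 kb and 39 within 1 Mb. Genes of the 10 that followed the pattern in every pool ran from 3 to 5, and were 5 with a single limit of 2 CPM and 2 with limits of 0.5 and 10 CPM.

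Signs turned in other fits for 4 more differences, none of them called in any fit. For Fam124a in Mfn1&2-/- against Mfn2-/- they were -0.03 without Mfn2-/- replicate 3 and -0.08 without Mfn1&2-/- replicate 3, in a range of -0.082 to 0.36 over libraries left out. For Zbtb7c they were 0.21 and 0.0090 without Mfn1&2-/- replicate 1 or 3 (range -0.59 to 0.21), and for Abcb11 0.15 and 0.20 without Mfn2-/- replicate 3 or Mfn1&2-/- replicate 1 (range -0.34 to 0.20). For Tie1 in Mfn1-/- against WT they were 0.0048 with limma voom and 0.24 and 0.13 without WT replicate 3 or Mfn1-/- replicate 1 (range -0.41 to 0.24). The cause was not tested. For Cacna1s in Mfn1&2-/- against Mfn2-/-, limma voom gave 4.69. Pknox2 could not be fitted with only those 2 groups, since filterByExpr removed it there. Near 0, depth limits the precision: 3 reads set the floor of a group.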
